A study of Mus musculus with 8 samples.

Results

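Levels of the organic ion and ABC transporters were described in primary tubular epithelial cells of mouse kidney with and without Aldh2, a mitochondrial dehydrogenase that clears acetaldehyde and the aldehydes of lipid peroxidation. Members were chosen by symbol alone, as every gene of the table in the Slc22a, Slc47a, Slco, Slc29a, Slc10a, Slc19a, Slc5a, Slc23a, Abca, Abcb, Abcc, Abcd and Abcg families. These gave 51 of the 14145 genes: 26 in uptake families and 25 in export families, the latter being 24 ABC genes and Slc47a1. No measured value entered the choice.

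The control libraries, labelled WT, came from Aldh2Ctrl mice and the knockout libraries, labelled KO, from Aldh2TEC-KO mice, whose Aldh2 loss is placed in tubular epithelial cells. There were 4 libraries per group, and all cells were grown in DMEM/F12 with fetal bovine serum and penicillin-streptomycin and received no treatment. Neither the promoter behind the deletion nor the age and strain of the mice was stated in the sources used here. Since no label ties a library to its own animal, the p-values describe only how these libraries scatter, and some of that scatter may be technical.

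Tubular cells clear drugs, metabolites and toxins by taking them up at one membrane and passing them out at the other. Solute carriers of the families studied here bring in organic anions and cations, nucleosides, vitamins, bile acids, prostaglandins and osmolytes, driven by sodium, by exchange or, for the equilibrative nucleoside carriers of Slc29a, by the substrate's own gradient. ABC proteins spend ATP to move substrates across membranes, in many cases out of the cytosol, either out of the cell or into organelles. The MATE antiporter Slc47a1 passes organic cations into the urine in exchange for protons.

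The unit is FPKM, which is reads scaled to gene length and library depth. Depth recovered from the values was 17040000 to 17750000 reads or fragments in the control libraries and 17890000 to 18750000 in the knockout libraries. Aldh2 read 23.7 to 31.1 FPKM in the controls, against 0.879 to 1.64 FPKM in the libraries labelled knockout, 4.71% of control, a difference of -3.61 on the log2(FPKM + 1) scale (SE 0.17, limma adjusted p = 3.43e-05). Sex-linked transcripts read as male in all 4 controls and in knockout 3 and 4, and as female in knockout 1 and 2, so the sexes were not balanced between the groups. Knockout 3 and 4 also stood apart in mitochondrially encoded transcripts, whose sum was 4236 and 5033 FPKM against 11690 to 21741 FPKM in the other 6 libraries. Markers of other cells varied strongly. The 18 macrophage and leukocyte markers summed to 1170, 126, 137 and 123 FPKM across control 1 to 4, against 645, 1970, 262 and 1220 FPKM across knockout 1 to 4. Lyz2 was a large part of the sum in control 1, at 674.09 FPKM, and in knockout 2, at 990.32 FPKM. In control 4 Cd14 alone read 71.65 FPKM, while 14 of the 18 markers had their lowest value there. By mean, 17 of the 18 stood above control in the knockouts and 1 below. Their median log2 difference was 1.47, where that of all genes was -0.06. Of the 18, 5 had an unadjusted p below 0.05 (limma), or 27.8%, and none passed after adjustment. The tubular label was also checked against segment markers. Only 13 of 30 proximal tubule markers were among the genes analysed, with sums of 67.8 to 193 FPKM in controls, against 26.9 to 163 FPKM in knockouts, while 10 of 23 distal nephron markers were, with sums of 608 to 1650 and 312 to 3910 FPKM. The distal sum was carried by the keratin Krt8, at 469.01 to 1459.87 FPKM in controls, against 266.88 to 3553.02 FPKM in knockouts. Of those 10 distal markers 8 were lower in mean in the knockouts, with a median difference of -1.17 on the log2(FPKM + 1) scale. An unadjusted p below 0.05 (limma) was found for 6 of the 10, against 19.2% of all genes, and none passed after adjustment. Of the 13 proximal markers 9 were lower in mean, with a median of -0.5. Of these 13, 3 had an unadjusted p below 0.05 (limma), or 23.1%, and none passed after adjustment. Groups did not overlap for 3 proximal markers, 23.1% against 11.6% of all genes. Slc22a6, Slc22a8 and Slc5a2, defining transporters of the proximal tubule in kidney, were not among the genes analysed here. In bulk RNA, fewer cells of a type and less RNA per cell cannot be told apart.

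No transporter passed the test between the groups. With limma on log2(FPKM + 1) over all genes, 0 of 26 uptake members and 0 of 25 export members had an adjusted p below 0.05, where 11 of the 14145 genes, or 0.0778%, did. The lowest adjusted p of any member was 0.196. At an unadjusted p below 0.05 there were 3 uptake members and 1 export member, 7.84% of the 51, against 19.2% of all genes. The mean was lower in the knockouts for 16 of 26 uptake and 18 of 25 export members, 66.7% of all members, against 55.5% of all genes. Median log2 differences were -0.15 for uptake, -0.12 for export and -0.06 for all genes. Groups of 4 against 4 did not overlap for 2 members, Slc29a2 and Abcb1a, both lower in the knockouts. That is 3.92% of the members, against 11.6% of all genes.

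The size of what could be missed differed between members, as the plot of differences with their intervals shows. For 42 of the 51 members the estimated difference was within 0.5 on the log2 scale in either direction, 82.4% against 74.5% of all genes. The 95% intervals still reached beyond that size for 45 members and included 0 for 47, so equal levels were not shown.

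**Figure D1:**
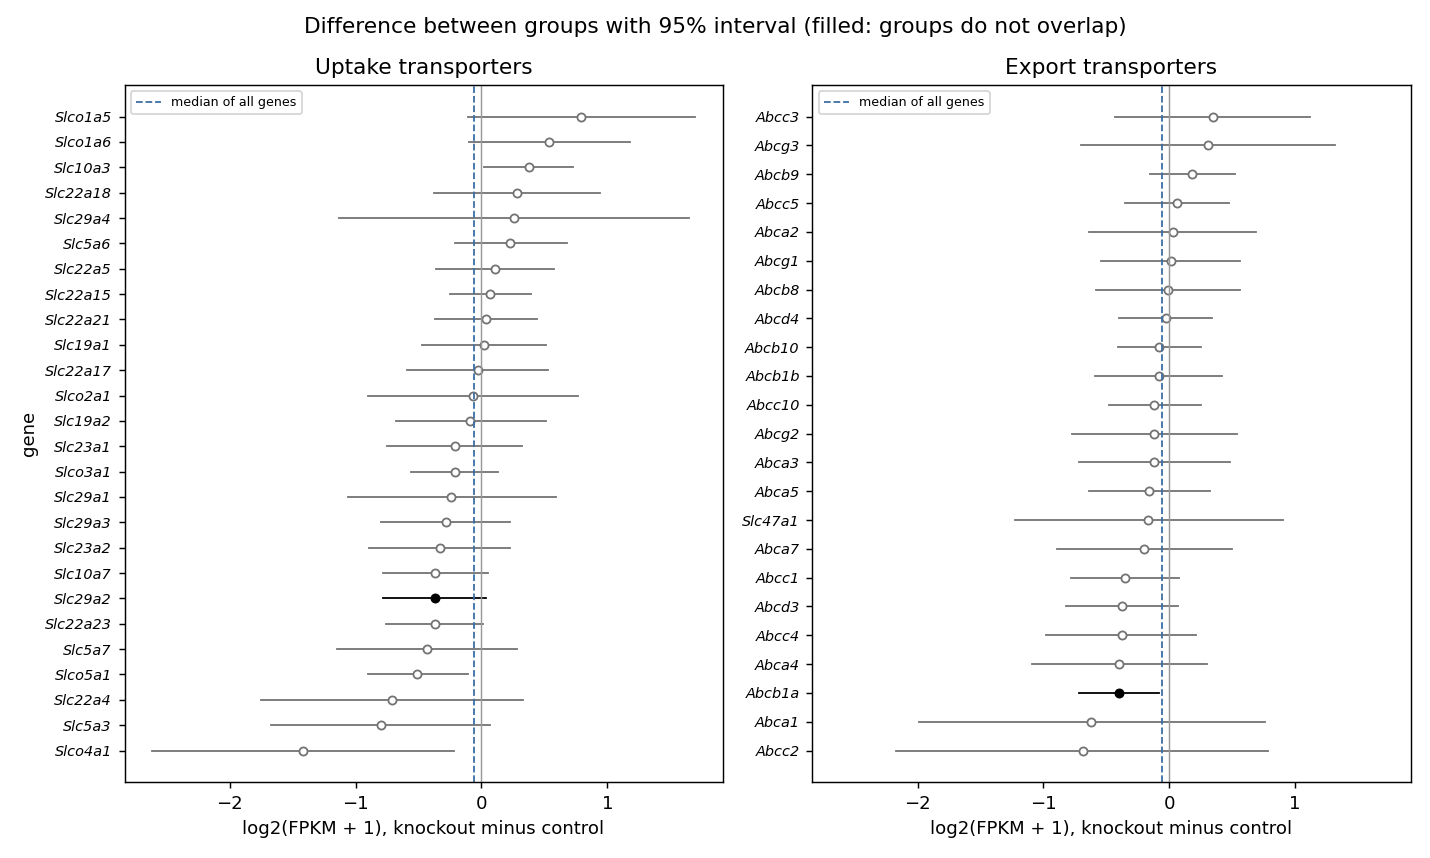
Difference between knockout and control (4 libraries each) on the log2(FPKM + 1) scale for 49 uptake (left) and export (right) transporters, with its 95% interval from limma; the dashed line is the median of all genes at -0.06. Filled points are Slc29a2 and Abcb1a, whose groups did not overlap, and 45 of the 49 intervals shown include 0.

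Among the organic anion and cation carriers of the Slc22a family, Slc22a23 (ENSMUSG00000038267, GRCm38 chromosome 13, 34179158 to 34345182, minus strand) was by far the most abundant uptake transporter. This orphan carrier, of no settled substrate, read 47.25, 65.44, 60.21 and 56.73 FPKM across control 1 to 4, against 41.45, 52.43, 39.41 and 42.78 FPKM across knockout 1 to 4. Controls were mostly the higher libraries, but control 1 lay below knockout 2, and the difference of -0.37 (SE 0.17, 95% interval -0.76 to 0.01) did not pass (limma adjusted p = 0.268). Slc22a18, an imprinted carrier of the same family, read 8.49, 7.87, 11.3 and 6.96 FPKM in the controls, against 8.38, 6.12, 15.63 and 15.17 FPKM in the knockouts. Its knockout values split into a low pair, knockout 1 and 2, and a high pair, knockout 3 and 4. The groups overlapped, with a difference of 0.28 (SE 0.29, limma adjusted p = 0.594). Slc22a5, the high-affinity carnitine transporter, read 5.01 to 6.57 FPKM in controls, against 4.81 to 9.26 FPKM in knockouts, a difference of 0.11 (SE 0.21, limma adjusted p = 0.774).

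Slc22a4, the ergothioneine transporter that lies near Slc22a5 on chromosome 11, with Slc22a21 between them, was set by 1 library. It read 2.45, 2.41, 2.4 and 13.4 FPKM across control 1 to 4, against 1.0, 2.98, 2.28 and 2.07 FPKM across knockout 1 to 4. Without control 4 its difference moved from -0.71 to -0.19. Of the remaining members, Slc22a17, a receptor for lipocalin-2, read 1.16 to 2.55 FPKM in controls, against 0.842 to 2.68 FPKM in knockouts, and Slc22a21, a rodent carnitine carrier, read 0.742 to 1.31 and 0.658 to 1.43 FPKM. Slc22a15, a carrier of zwitterions, reached a mean of 1 FPKM in neither group. Slc22a5 and Slc22a21 share sequence: 27.1% and 24.2% of the 50-base windows of their longest transcripts occur in another gene, mainly each other, so their values may be split between them.

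The Slco family takes up prostaglandins, thyroid hormones and other amphipathic anions. Slco2a1, the prostaglandin transporter, was its most abundant member and the second uptake member by level, at 10.76, 25.92, 28.39 and 48.0 FPKM across control 1 to 4, against 18.77, 26.22, 25.4 and 25.68 FPKM across knockout 1 to 4. Controls spanned the whole range, and the knockouts lay inside it, with a difference of -0.07 (SE 0.37, 95% interval -0.90 to 0.77, limma adjusted p = 0.928). Slco3a1, a carrier of prostaglandins and thyroxine, was among the steadiest members, at 10.1 to 12.5 FPKM in controls, against 8.37 to 10.8 FPKM in knockouts, with a difference of -0.21 (SE 0.15, limma adjusted p = 0.442).

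Slco4a1 (ENSMUSG00000038963, GRCm38 chromosome 2, 180456245 to 180474867, plus strand), a thyroid hormone carrier, had the difference of largest size of all 51 members. It read 2.94, 7.25, 6.65 and 19.71 FPKM across control 1 to 4, against 0.837, 1.99, 6.38 and 1.49 FPKM across knockout 1 to 4. Knockout 3 reached the controls and 3 knockouts lay under every control. The difference was -1.42 (SE 0.54, 95% interval -2.62 to -0.22) and did not pass (limma adjusted p = 0.217). Without control 4 it was -0.99.

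The rodent carriers Slco1a5 and Slco1a6, neighbours on chromosome 6, had their highest values in knockout libraries. Slco1a5 read 0.607, 0.315, 0.242 and 0.465 FPKM across control 1 to 4, against 5.08, 0.991, 0.272 and 1.24 FPKM across knockout 1 to 4. Its 3 highest values were knockouts, while knockout 3 sat among the controls, and the difference was 0.79 (SE 0.40, limma adjusted p = 0.308). Slco1a6 read 0.137, 0.246, 0.074 and 0.469 FPKM in the controls, against 1.4, 1.64, 0.084 and 0.448 FPKM in the knockouts, where only knockout 1 and 2 lay above every control. Those are the female libraries, so genotype and sex cannot be told apart for that pair. About 5% of the sequence windows of both genes recur elsewhere (5.2% and 5.6%).

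Slco5a1 (ENSMUSG00000025938, GRCm38 chromosome 1, 12866549 to 12992650, minus strand), a member of little known function, had the lowest adjusted p of the 51. It read 0.97, 0.884, 0.682 and 1.06 FPKM across control 1 to 4, against 0.256, 0.715, 0.118 and 0.31 FPKM across knockout 1 to 4. Knockout 2 overlapped control 3, and the other knockouts lay below every control, a difference of -0.51 (SE 0.17, limma adjusted p = 0.196). Leaving out knockout 2, it passed as the only member to do so, at -0.63, which is 1 of 51 or 1.96%, against 8.05% of all genes in the same 7 libraries. After correction for length and GC content, Slco5a1 stood at 0.06 in all 8 libraries (SE 0.19, limma adjusted p = 0.888). In the authors' deposited table it is marked as down, with a log2 fold change of -1.33 and an adjusted p of 0.35. That table marks 3 members, 5.88% against 5.71% of all genes, the other two being Abcb1a, down, and Slco1a6, up at 1.97 with an adjusted p of 0.812, and none has an adjusted p below 0.05.

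**Figure D2:**
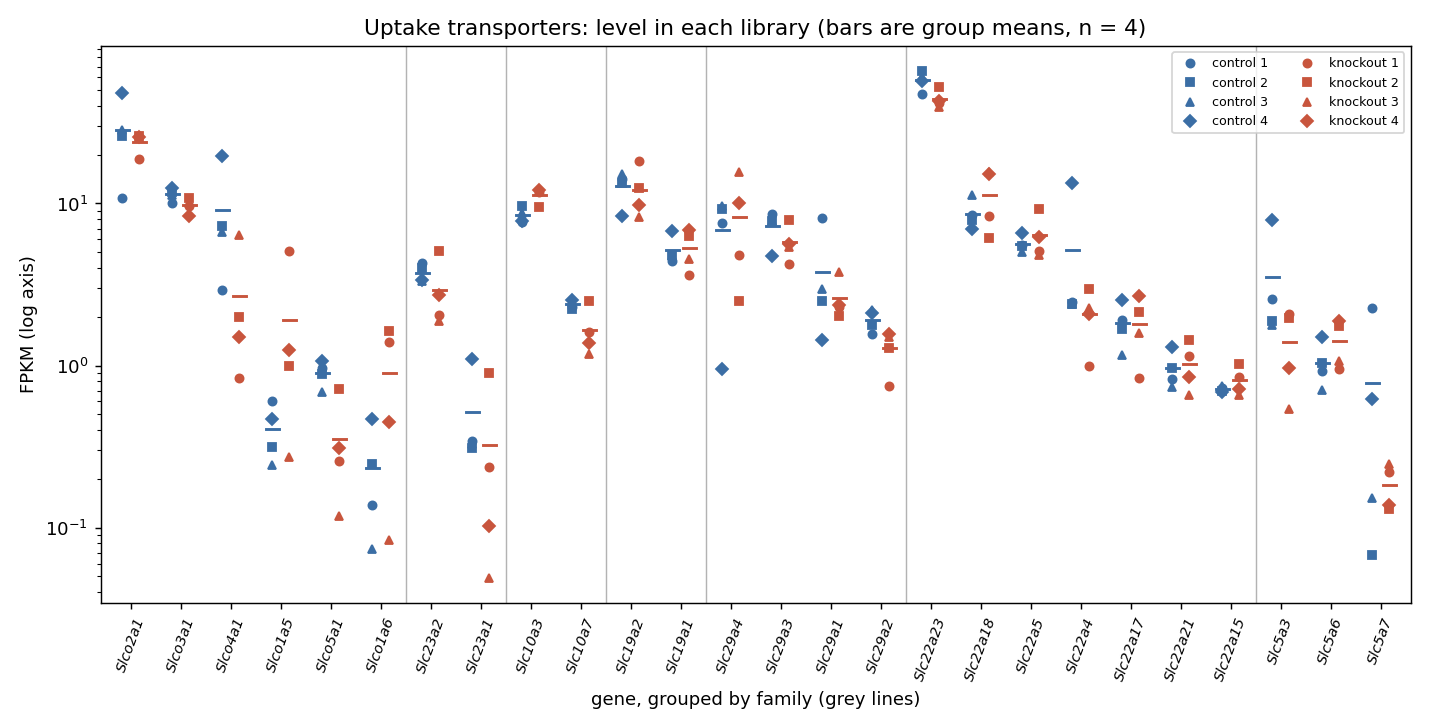
FPKM (log axis) of each uptake transporter in the 4 control (blue) and 4 knockout (red) libraries, with marker shape giving the library number and bars the group means, families parted by grey lines. Slc22a23 lies above all others at 39.4 to 65.4 FPKM, Slc29a2 is the member whose groups do not overlap, and single control 4 points stand high for Slc22a4, Slc5a3, Slc23a1 and Slco4a1.

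Nucleoside carriers of the Slc29a family read low to moderate. Slc29a4, the plasma membrane monoamine transporter, had the highest mean of the 4 and the widest spread, at 7.59, 9.26, 9.58 and 0.947 FPKM across control 1 to 4, against 4.82, 2.5, 15.57 and 10.01 FPKM across knockout 1 to 4. Control 4 was its lowest library, and without it the sign of the difference turned, from 0.26 to -0.32, with limma adjusted p of 0.826 and 0.761. Slc29a3, the nucleoside carrier of lysosomes, read 4.75 to 8.64 FPKM in controls, against 4.21 to 7.9 FPKM in knockouts. Slc29a1, the main equilibrative nucleoside transporter of the plasma membrane, read 1.44 to 8.16 and 2.02 to 3.78 FPKM. Both had wide overlap, with differences of -0.28 (SE 0.23) and -0.24 (SE 0.37).

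Slc29a2 (ENSMUSG00000024891, GRCm38 chromosome 19, 5024006 to 5031971, plus strand), the equilibrative transporter of nucleosides and nucleobases, was the uptake member whose groups stood apart. It read 1.57, 1.78, 2.19 and 2.12 FPKM across control 1 to 4, against 0.747, 1.29, 1.51 and 1.56 FPKM across knockout 1 to 4. The margin was small, since the lowest control at 1.57 FPKM and the highest knockout at 1.56 FPKM nearly met. With each library divided by its median-ratio size factor, 1.04 for control 1 and 0.98 for knockout 4, the groups of Slc29a2 overlapped. Its level rested on 42 to 117 reads, and the difference of -0.37 (SE 0.18, 95% interval -0.78 to 0.04) did not pass (limma adjusted p = 0.297).

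Vitamin carriers showed no difference beyond the spread between libraries. Slc19a2, the thiamine transporter, read 14.23, 13.3, 15.14 and 8.41 FPKM across control 1 to 4, against 18.31, 12.45, 8.24 and 9.76 FPKM across knockout 1 to 4, with full overlap and a difference of -0.09 (SE 0.27, limma adjusted p = 0.86). Slc19a1, the reduced folate carrier, read 4.43 to 6.73 and 3.63 to 6.83 FPKM. Slc23a2, the sodium-dependent vitamin C transporter of most tissues, read 4.31, 4.01, 3.31 and 3.36 FPKM in the controls, against 2.04, 5.1, 1.88 and 2.74 FPKM in the knockouts, where knockout 2 was the highest library of all and the other 3 lay below every control. Its difference was -0.33 (SE 0.25, limma adjusted p = 0.463). Slc23a1, the form of absorptive epithelia, was low, at 0.34, 0.308, 0.33 and 1.09 FPKM in controls, against 0.235, 0.898, 0.049 and 0.102 FPKM in knockouts. Slc5a6, the biotin and pantothenate transporter, read 0.705 to 1.49 FPKM in controls, against 0.953 to 1.88 FPKM in knockouts, a difference of 0.23 (SE 0.20), and 16.4% of its sequence windows recur in another gene, Gm6157.

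The 2 bile acid family members measured, Slc10a3 and Slc10a7, are orphans, and neither is a known bile acid carrier. Slc10a3, on chromosome X, read 7.73, 9.66, 8.77 and 7.81 FPKM across control 1 to 4, against 11.84, 9.5, 11.86 and 12.12 FPKM across knockout 1 to 4. There 3 knockouts lay above every control and knockout 2 fell within them, a difference of 0.38 (SE 0.16, 95% interval 0.02 to 0.73, limma adjusted p = 0.242). Part of this gene, 12.8% of its exon bases, is also annotated as exon of Ubl4a on the same strand. Slc10a7 ran the other way, at 2.24 to 2.52 FPKM in the controls, against 1.6, 2.51, 1.17 and 1.38 FPKM across knockout 1 to 4. Again knockout 2 sat with the controls, and the difference was -0.37 (SE 0.19, limma adjusted p = 0.308).

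Slc5a3 takes up myo-inositol, an osmolyte, and its gene is a known target of the osmotic factor Nfat5. It read 2.57, 1.89, 1.78 and 7.87 FPKM across control 1 to 4, against 2.08, 1.96, 0.542 and 0.969 FPKM across knockout 1 to 4, a difference of -0.80 (SE 0.39, limma adjusted p = 0.291). Without control 4 it was -0.42, and it was -0.23 once the length and GC trend was taken out. Nfat5 itself read 12.49, 14.24, 10.18 and 20.18 FPKM in the controls, against 7.59, 11.59, 2.18 and 3.11 FPKM in the knockouts, a difference of -1.28 (SE 0.42, limma adjusted p = 0.182), which was -0.57 with that trend removed. Both were highest in control 4 and lowest in knockout 3 and 4. Of all genes 18.6% were highest in control 4 and 33.3% lowest in knockout 3, and a link between Slc5a3 and Nfat5 was not tested. The choline transporter Slc5a7 was seen mainly in control 1, at 2.27 FPKM, against 0.068 to 0.624 FPKM in the other controls and 0.13 to 0.247 FPKM in the knockouts.

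On the export side the multidrug resistance proteins of the Abcc family held the highest level of any transporter. Abcc4 (ENSMUSG00000032849, GRCm38 chromosome 14, 118482692 to 118706219, minus strand), which exports cyclic nucleotides, urate and prostaglandins, read 45.59, 99.76, 100.68 and 86.9 FPKM across control 1 to 4, against 54.57, 68.56, 69.42 and 52.09 FPKM across knockout 1 to 4. There 3 controls lay above every knockout, and control 1 lay below them all. The difference was -0.38 (SE 0.27, 95% interval -0.98 to 0.21, limma adjusted p = 0.426).

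Abcc1, which exports glutathione conjugates, including those of lipid aldehydes, read 8.42, 10.14, 10.69 and 9.47 FPKM across control 1 to 4, against 5.23, 7.65, 9.46 and 7.58 FPKM across knockout 1 to 4. Knockout 3 overlapped the controls, and the difference of -0.35 (SE 0.19, limma adjusted p = 0.328) did not pass. Abcc5, an exporter of cyclic nucleotides, read 6.66, 7.31, 6.77 and 7.47 FPKM in controls, against 7.68, 9.97, 6.06 and 6.38 FPKM in knockouts, with a difference of 0.06 (SE 0.18, limma adjusted p = 0.861). Knockout 1 and 2, the female pair, were the highest. Knockout 3 and 4, which are male and low in mitochondrially encoded transcripts, were the lowest.

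Abcc2 and Abcc3 export conjugates at the apical and the basolateral membrane. Abcc2 read 0.19, 0.619, 0.343 and 9.21 FPKM across control 1 to 4, against 0.21, 1.98, 0.019 and 0.058 FPKM across knockout 1 to 4, from 3 reads in the lowest library to 1362 in the highest. Control 4 stood far above the rest and knockout 2 was next, and without control 4 the difference of -0.69 (SE 0.66) became 0.03. Abcc3 read 3.52, 1.56, 1.8 and 2.63 FPKM in controls, against 1.93, 6.88, 1.78 and 3.81 FPKM in knockouts, a difference of 0.35 (SE 0.35, limma adjusted p = 0.576). Its 3 highest libraries, knockout 2, knockout 4 and control 1, were also the 3 highest in the sum of macrophage and leukocyte markers given above, and the part of those cells in its level was not tested. Abcc10, a lipophilic drug exporter, read 1.23 to 1.56 FPKM in controls, against 0.832 to 1.53 FPKM in knockouts.

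Sterol and phospholipid transporters of the Abca and Abcg families varied more between libraries than between groups. Abca2, a lysosomal lipid transporter, read 13.79 to 16.22 FPKM in controls, against 7.58, 23.25, 14.17 and 19.93 FPKM in knockouts, with a difference of 0.03 (SE 0.30, limma adjusted p = 0.966). Abca3, known for filling surfactant lamellar bodies in lung, read 13.31 to 16.73 FPKM in controls, against 7.69, 16.25, 20.64 and 16.23 FPKM in knockouts, with a difference of -0.12 (SE 0.27, limma adjusted p = 0.816). Abca7, a phospholipid transporter, read 6.29 to 7.48 and 2.33, 7.25, 8.09 and 7.67 FPKM. In all 3 genes knockout 1 was the lowest library, at 7.58, 7.69 and 2.33 FPKM.

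Abca1 (ENSMUSG00000015243, GRCm38 chromosome 4, 53030787 to 53159895, minus strand) loads cholesterol onto apolipoprotein A-I and read 12.35, 9.03, 6.46 and 38.52 FPKM across control 1 to 4, against 6.52, 25.77, 3.48 and 6.93 FPKM across knockout 1 to 4. Control 4 and knockout 2 were the high libraries, 1 in each group. The difference was -0.62 (SE 0.61, 95% interval -1.99 to 0.76, limma adjusted p = 0.576), and without control 4 it was -0.12. Abcg1, which moves cholesterol to lipoprotein particles and is, like Abca1, a target of the sterol-sensing LXR receptors, read 3.03, 1.83, 2.13 and 4.24 FPKM in controls, against 1.83, 3.52, 3.32 and 2.52 FPKM in knockouts. Its difference was 0.01 (SE 0.25, limma adjusted p = 0.978).

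The 250 bases before the start sites of Abca1 and Slc22a4 are shown because these members had the 2 highest absolute levels among those at least 3 times above the next control in control 4. Sequences are from RefSeq on GRCm38.p6, with Abca1 at chr4:53159896-53160145 on the minus strand and Slc22a4 at chr11:54028105-54028354 on the minus strand. Capitals mark matches to 3 motifs looked for with these windows in view: the E-box CACGTG, the TATA box TATAAA and the LXR element, taken as the half-sites TGACCG and TAACCN with 4 bases between them.

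Abca1: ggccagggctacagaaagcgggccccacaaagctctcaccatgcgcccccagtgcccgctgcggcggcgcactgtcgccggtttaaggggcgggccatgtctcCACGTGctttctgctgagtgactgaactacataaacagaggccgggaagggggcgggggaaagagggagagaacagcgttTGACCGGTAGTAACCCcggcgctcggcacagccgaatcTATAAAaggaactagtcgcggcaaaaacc

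Slc22a4: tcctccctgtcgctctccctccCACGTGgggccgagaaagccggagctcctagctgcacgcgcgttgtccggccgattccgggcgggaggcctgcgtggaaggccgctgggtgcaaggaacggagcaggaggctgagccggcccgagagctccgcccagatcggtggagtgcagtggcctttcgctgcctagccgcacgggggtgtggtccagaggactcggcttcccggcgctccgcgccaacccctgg

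The Abca1 window holds the E-box first, then the LXR element, whose first base lies at -67 from the start site, then the TATA box at -29. The Slc22a4 window holds an E-box at -228 and neither of the other motifs. Both strands were searched. Of 32851 promoter windows of the same length, 6.02% hold the E-box, 12.4% the TATA box and 0.0122%, or 4 windows, the LXR element, which was written with the Abca1 window in view. Among 55 windows of the 38 members found in the table, the counts were 4, 7 and 1. Motifs of kidney and stress regulators were searched on both strands too. The HNF1 half-site GTTAAT was in 0 of the 55 member windows against 6.43% of all, and the HNF4 element CAAAGTCCA in 0 against 0.384%. The nuclear receptor half-site AGGTCA and the antioxidant core TGACNNNGC were each in 8 member windows, or 14.5%, against 14.0% and 10.2% of all. These are letter matches and do not show binding.

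Genes that work with Abca1 and Abcg1 in sterol handling were more often higher than lower in mean, and none passed. Of 27 sterol efflux and LXR partner genes 24 were measured, those 2 included, and 0 passed, with 17 higher and 7 lower in mean and a median of 0.10 against -0.06 for all genes. Npc2, the lysosomal cholesterol carrier, read 42.29, 35.92, 36.62 and 30.21 FPKM across control 1 to 4, against 65.79, 53.99, 62.69 and 71.73 FPKM across knockout 1 to 4. Every knockout lay above every control, a difference of 0.80 (SE 0.17, limma adjusted p = 0.101). It passed with sex as a covariate, at 0.88 (limma adjusted p = 0.0074), and without knockout 2, at 0.87 (limma adjusted p = 0.0296). It also passed in the 6 male libraries with and without the trend on length and GC content. Of all genes 34.2%, 8.05%, 44.4% and 22.9% passed in those fits, in that order. No control was female, so the covariate fit and the male libraries before trend removal give the same difference, 0.88. Npc2 did not pass with the trend removed in all 8 libraries (limma adjusted p = 0.0755). Nor did it without knockout 3 and 4 or without control 4 (limma adjusted p of 0.153 and 0.224). Apoe, a lipoprotein component made in quantity by macrophages, read 206.62, 14.1, 17.38 and 15.56 FPKM in controls, against 128.79, 284.36, 60.37 and 317.13 FPKM in knockouts, a difference of 2.39 (SE 0.85, limma adjusted p = 0.201). Its 4 highest libraries were the 4 highest in the macrophage and leukocyte sum. Pltp, a phospholipid transfer protein, and Cd36, a lipid scavenger receptor, had differences of 0.76 and 1.11, with limma adjusted p of 0.179 and 0.234.

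Abcg2, the urate and drug exporter, read 3.8, 5.86, 5.57 and 9.24 FPKM across control 1 to 4, against 7.83, 6.9, 3.88 and 3.72 FPKM across knockout 1 to 4. Knockout 1 and 2, the female pair, lay above knockout 3 and 4, which are male and low in mitochondrially encoded transcripts. Sex and that difference cannot be told apart there. The controls spanned nearly the same range as the knockouts, with a difference between the groups of -0.12 (SE 0.29, limma adjusted p = 0.834). Abcg3, a rodent gene of the family, read 2.5, 0.38, 0.634 and 0.097 FPKM in controls, against 0.658, 3.59, 0.24 and 1.18 FPKM in knockouts. Knockout 2, control 1 and knockout 4 were its 3 highest libraries, as they were for Abcc3 and for the macrophage and leukocyte markers, and the part of those cells was not tested. Its difference was 0.31 (SE 0.45, limma adjusted p = 0.705).

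**Figure D3:**
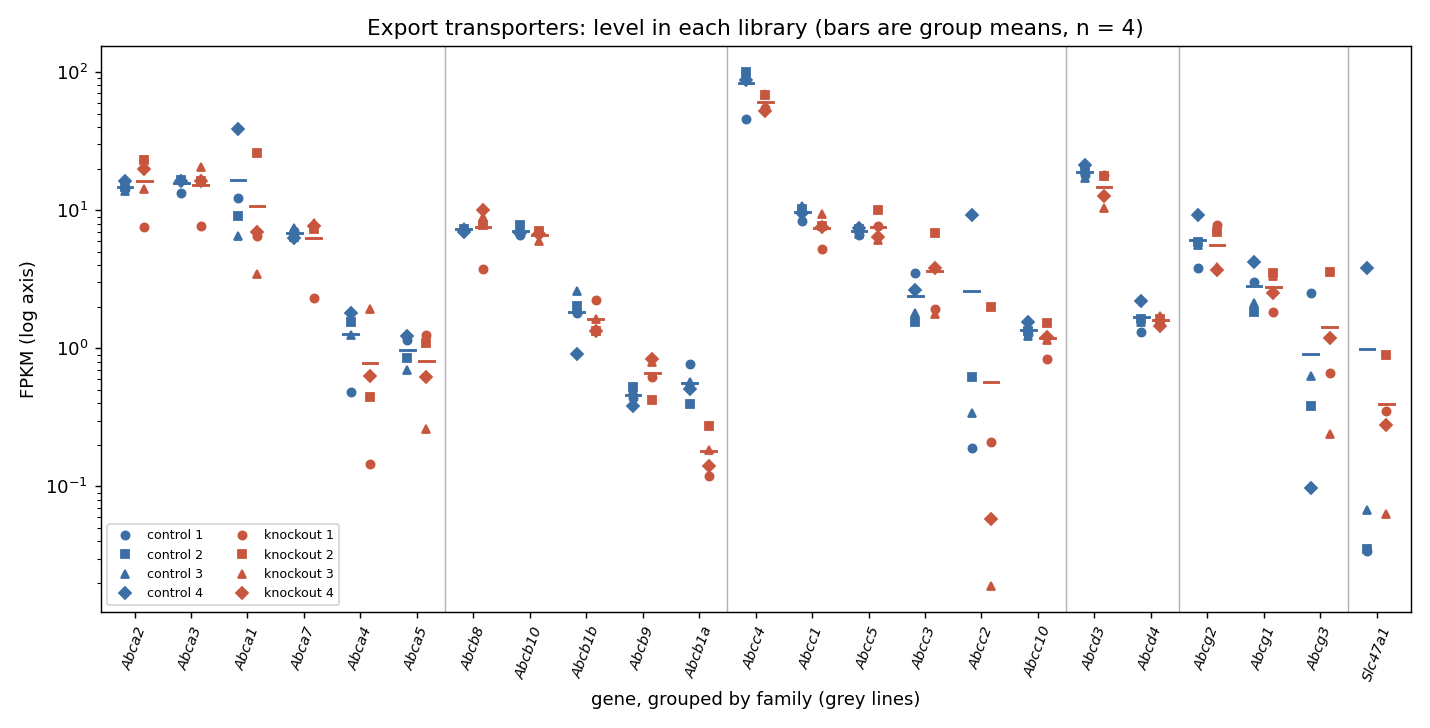
FPKM (log axis) of each export transporter in the 4 control (blue) and 4 knockout (red) libraries, with marker shape giving the library number and bars the group means, families parted by grey lines. Abcc4 lies highest at 45.6 to 101 FPKM, Abcb1a is the member whose groups do not overlap, and Abcc2 and Slc47a1 are near the floor in most libraries and raised in control 4.

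The Abcb family holds the P-glycoproteins and the ABC proteins of the mitochondrial inner membrane. P-glycoprotein, the multidrug exporter, is encoded in mouse by Abcb1a and Abcb1b. Abcb1a (ENSMUSG00000040584, GRCm38 chromosome 5, 8660077 to 8748575, plus strand) read 0.771, 0.396, 0.575 and 0.505 FPKM across control 1 to 4, against 0.119, 0.275, 0.185 and 0.141 FPKM across knockout 1 to 4. All knockouts lay below all controls, a difference of -0.40 on the log2(FPKM + 1) scale, which understates changes at such low levels (SE 0.14, 95% interval -0.72 to -0.08, limma adjusted p = 0.204). The values rest on 12 to 73 reads per library. In the authors' deposited table Abcb1a is marked as down, with a log2 fold change of -1.56 and an adjusted p of 0.381. Abcb1b, the more abundant copy, read 1.79, 2.03, 2.59 and 0.909 FPKM in controls, against 2.22, 1.34, 1.62 and 1.34 FPKM in knockouts, with full overlap. The copies share 17.0% and 18.3% of their sequence windows with other genes, mainly each other, so reads could have been split between them.

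Of the mitochondrial members, Abcb8 and Abcb10 are linked to iron and haem handling. Abcb8 read 6.92 to 7.5 FPKM in controls, against 3.74, 7.78, 8.88 and 10.0 FPKM in knockouts, a difference of -0.01 (SE 0.26, limma adjusted p = 0.985). Abcb10 read 6.6 to 7.77 and 5.97 to 7.05 FPKM, with a difference of -0.08 (SE 0.15, 95% interval -0.41 to 0.25). Abcb9, a lysosomal peptide transporter, stayed below 1 FPKM in mean in both groups.

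The Abcd family imports fatty acyl groups into peroxisomes. Abcd3, its most abundant member, read 17.93, 19.64, 17.12 and 21.32 FPKM across control 1 to 4, against 17.98, 17.63, 10.4 and 12.77 FPKM across knockout 1 to 4. Knockout 3 and 4 were low and knockout 1 and 2 lay among the controls, and the difference of -0.38 (SE 0.20, limma adjusted p = 0.318) did not pass. Abcd4, which acts in lysosomal release of vitamin B12 rather than in peroxisomes, read 1.31 to 2.21 and 1.45 to 1.72 FPKM, a difference of -0.03 (SE 0.16).

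Slc47a1, the luminal exporter of organic cations, was close to absent in 3 of 4 controls. It read 0.034, 0.035, 0.067 and 3.82 FPKM across control 1 to 4, against 0.353, 0.892, 0.063 and 0.277 FPKM across knockout 1 to 4, from 2 reads in its lowest library to 224 in control 4. Its difference was -0.17 (SE 0.47, limma adjusted p = 0.855), and without control 4 it was 0.39. Among other low members, Abca4, which flips retinoid-lipid adducts, read 0.486 to 1.81 FPKM in controls, against 0.145 to 1.93 FPKM in knockouts. Abca5 reached a mean of 1 FPKM in neither group, nor did Slc47a1, Abcb1a, Abcb9, Slc22a15, Slco5a1, Slco1a6, Slc23a1 or Slc5a7.

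The transporters of control 4 formed a pattern that runs across families, which the map of deviations by library shows. Control 4 was the highest of the 8 libraries for 17 of 51 members, or 33.3%, against 18.6% of all genes. It lay at least 2-fold above the next control for 7 members, 13.7% against 3.27% of all genes. The ratio was 57.4 for Slc47a1, 14.9 for Abcc2, 5.47 for Slc22a4, 3.2 for Slc23a1, 3.12 for Abca1, 3.06 for Slc5a3 and 2.72 for Slco4a1. Apart from Slco4a1 and Slc5a3, these were also higher in knockout 2 than in the other 3 knockouts.

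**Figure D4:**
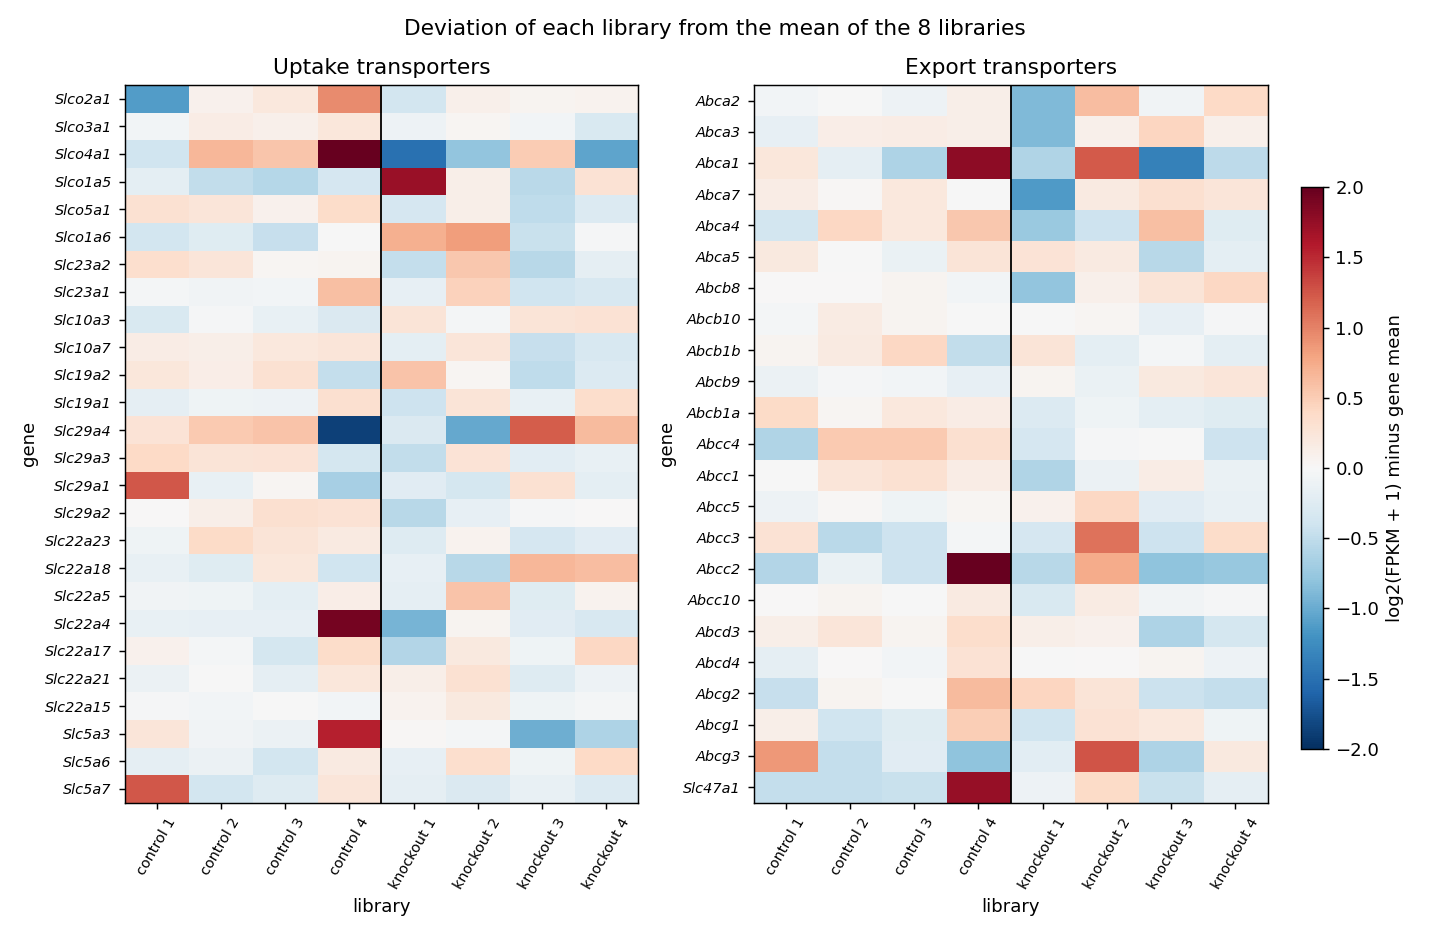
Deviation of each library from the gene's mean over the 8 libraries, in log2(FPKM + 1) units with the scale ending at -2 and 2, for uptake (left) and export (right) transporters; a black line parts controls from knockouts. Control 4 is deep red for Slco4a1, Slc22a4, Slc5a3, Abca1, Abcc2 and Slc47a1 and deep blue for Slc29a4, knockout 1 is deep red for Slco1a5 and deep blue for Slco4a1, and knockout 3 is deep blue for Abca1.

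Of the 13 measured proximal tubule markers 7, or 53.8%, were highest in control 4 and 5, or 38.5%, in knockout 2, against 18.6% and 13.4% of all genes. Lrp2, the endocytic receptor megalin, read 8.03 FPKM in control 4 and 15.15 FPKM in knockout 2. A high place of control 4 was not particular to proximal markers, since 6 of the 10 distal nephron markers were highest there too, among them the magnesium channel Trpm6 at 16.33 FPKM. Hnf4a, a nuclear receptor that drives transporter genes in proximal tubule, read 0.852, 1.26, 0.665 and 10.17 FPKM across control 1 to 4, against 0.191, 4.2, 0.265 and 2.65 FPKM across knockout 1 to 4. Pdzk1, the scaffold that holds transporters at the brush border, read 0, 0.049, 0.016 and 2.81 FPKM in the controls, against 0, 0.88, 0.015 and 0 FPKM in the knockouts. Both were chosen after their values were seen. The 13 proximal tubule markers summed to 97.6, 88.3, 67.8 and 193 FPKM in controls, against 63.9, 163, 26.9 and 66.8 FPKM in knockouts, so control 4 and knockout 2 led in each group. Cdh6 alone was a large part of that sum, at 59.55, 37.13, 22.85 and 66.11 FPKM in controls, against 29.59, 85.34, 6.62 and 31.48 FPKM in knockouts. Whether the share of proximal cells plays a part in the transporter values was not tested.

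Transporter regulators were read from a list of 30, of which 28 were measured. None passed in the limma test over all genes, where 5, or 17.9%, had an unadjusted p below 0.05, against 19.2% of all genes. In mean 13 were higher and 15 lower, with a median of -0.13 against -0.06 for all genes. Ahr, the xenobiotic-sensing receptor, read 10.93, 13.07, 9.31 and 10.27 FPKM across control 1 to 4, against 3.97, 8.39, 1.61 and 3.01 FPKM across knockout 1 to 4. Every knockout lay below every control, a difference of -1.33 (SE 0.34, limma adjusted p = 0.141). It passed with sex as a covariate, at -1.87 (limma adjusted p = 0.00449), and without knockout 2, at -1.66 (limma adjusted p = 0.0237). It also passed in the 6 male libraries with and without the trend on length and GC content. Of all genes 34.2%, 8.05%, 44.4% and 22.9% passed in those fits, in that order. No control was female, so the covariate fit and the male libraries before trend removal give the same difference, -1.87. Ahr did not pass with the trend removed in all 8 libraries (limma adjusted p = 0.102). Nor did it without knockout 3 and 4 or without control 4 (limma adjusted p of 0.24 and 0.253). Bcl6, a transcriptional repressor, also had groups without overlap, at 5.13 to 8.39 and 2.72 to 5.05 FPKM. Its difference was -0.63, with a limma adjusted p of 0.197. Nfe2l2, which encodes the antioxidant factor Nrf2, read 45.5 to 62.9 and 31.5 to 45.87 FPKM, a difference of -0.49 with a limma adjusted p of 0.205. Mtf1, the metal-responsive factor, was the third regulator without overlap, and these 3 are 10.7% of the 28, against 11.6% of all genes.

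Which transporters passed differed between fits that treat sex differently. Among the knockouts, the male libraries are those low in mitochondrially encoded transcripts, so there sex and that difference cannot be told apart. The controls were male and not low in them, so within the male libraries genotype and that difference cannot be told apart. In the 6 male libraries alone, 4 controls against knockout 3 and 4, 9 of 51 members passed, or 17.6%, against 44.4% of all genes. Slc22a18 rose by 0.78 on the log2 scale (limma adjusted p = 0.0136), Slc10a3 by 0.46 (limma adjusted p = 0.0213) and Abcb8 by 0.34 (limma adjusted p = 0.0354). The 6 others were lower, among them Abcd3 at -0.67, Slco5a1 at -0.65, Slc10a7 at -0.57, Slc23a2 at -0.53 and Slc22a23 at -0.46, with limma adjusted p from 0.00799 to 0.0409. With sex as a covariate in all 8 libraries 6 members passed, 11.8% against 34.2% of all genes, among them Slc22a18 and Slc10a3 upward and Abcd3, Slco5a1 and Slc10a7 downward. The controls held no female library, so these fits rest on the same 2 male knockouts. Of the regulators 13 passed in the male libraries, 46.4% against 44.4% of all genes, and of the sterol partners 6, or 25.0%.

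Those calls changed when the trend on length and GC content was taken out, and the plot of male-library differences shows them against length. The 2 were removed together. Members are long genes, with a median exon length of 5834 bases, 6856 for export and 4262.5 for uptake, against 3953.5 for all genes. Once the trend on length and GC content was removed in each male library, none of the 9 members passed. Slc22a18 stood at 0.13, Slc10a3 at 0.04, Abcb8 at 0.05, Abcd3 at 0.00 and Slco5a1 at 0.35. In their place 6 other members passed, 11.8% against 22.9% of all genes: Slc22a15 at 0.87, Slco1a5 at 0.76, Abca5 at 0.72, Slco1a6 at 0.61, Abcc5 at 0.33 and Slc29a2 at -0.73, with limma adjusted p from 0.0139 to 0.0464. The members shared by both calls numbered 0, where over all genes 2298 were shared, 36.6% of the first set and 71.1% of the second. Slc22a23 had a value of -0.46 in both fits and did not pass in the second (limma adjusted p = 0.0612). Slc22a15 read 0.689 to 0.751 FPKM in the controls, against 0.659 and 0.716 FPKM in knockout 3 and 4, and Slco1a6 and Slco1a5 in those 2 libraries were at 0.084 and 0.448 and at 0.272 and 1.24 FPKM. Abca5 read 0.694 to 1.23 FPKM in the controls, against 0.261 and 0.621 FPKM in knockout 3 and 4, so its deposited values were lower where the corrected difference was higher.

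**Figure D5:**
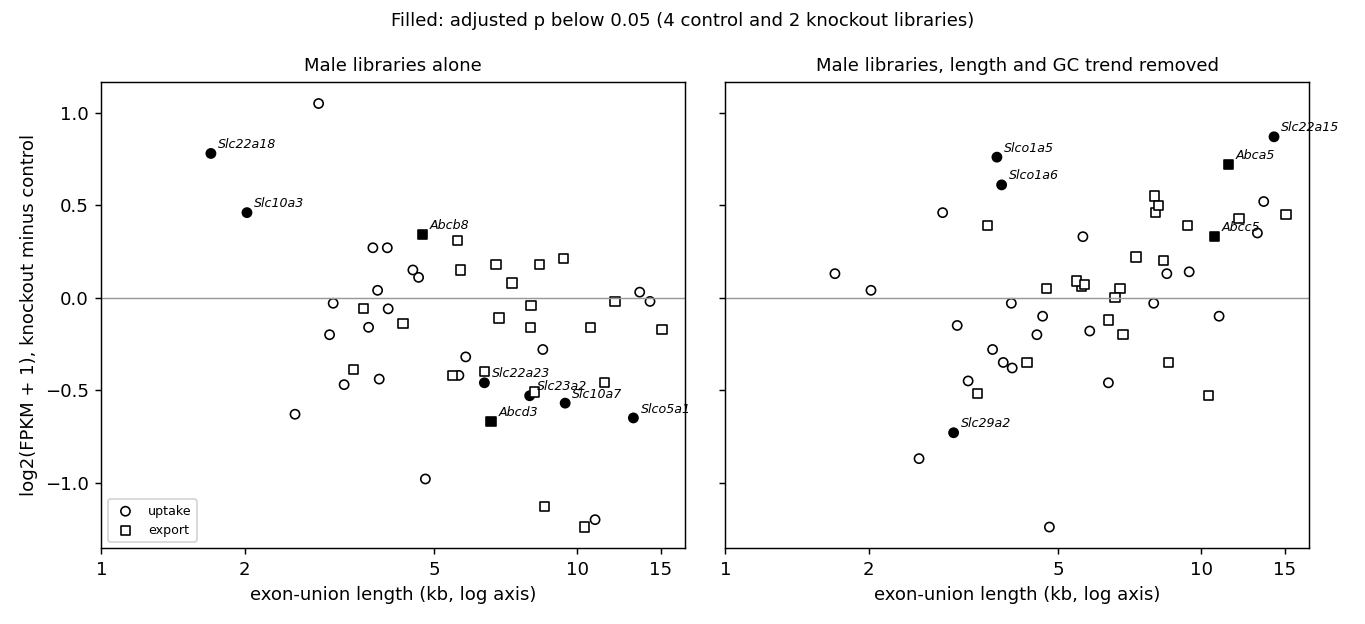
Difference between knockout and control in the 6 male libraries, on the log2(FPKM + 1) scale, against exon-union length (kb, log axis) for uptake (circles) and export (squares) members, before (left) and after (right) removal of the trend on length and GC content. Filled, named points had a limma adjusted p below 0.05, 8 of those shown on the left and 6 on the right, and no gene is filled in both.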

How the data were processed

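RNA-seq libraries of cultured primary tubular epithelial cells, 4 control and 4 knockout, were grouped by sample titles, because the genotype entries of the knockouts count upward from ALDH2 to ALDH5. Per the submitters' processing notes, STAR 2.4.1d, FastQC and DESeq2 were used with the build GRCm38. The counter, annotation, row filter and strandedness were not given in the sources used here. Per gene and library the authors deposited 1 value, for 14145 genes. The values carry decimals, and were treated as the authors' deposited FPKM because, multiplied by GENCODE M21 exon-union length, they fall on whole reads: within 0.05 read for 95.0% to 95.5% of values of 1 to 200 reads, against 12.1% to 14.3% with a wrong step. For each gene there are also the authors' own log2 fold change, p-value and adjusted p-value, printed only where named. Columns of values without a sample numbered 0.

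The planned count test was replaced, since the values are FPKM, by limma 3.58.1 in R 4.3.3 on log2(FPKM + 1) with a variance trend, all 8 libraries, no term besides genotype, and Benjamini-Hochberg adjustment over all genes at 0.05. The scale understates changes of low genes. The test was checked on simulated data. Depth limits genes of few reads, and intervals cover the spread between libraries. Read sharing was counted from GENCODE M21 transcripts and promoters were taken from RefSeq (GRCm38.p6). Windows were printed only up to the first annotated exon. Python 3.11.15 with numpy 2.4.6, pandas 2.3.3 and matplotlib 3.10.9 made the tables and plots.

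Members, lists and tests were chosen with earlier results of these data known. By rule, the text names Aldh2, members past the threshold, members without overlap and a mean of at least 1 FPKM, the 3 most abundant members per family, other members by range and the 4 regulators and partners of lowest p in each of those lists. 2 members are counted but not reported by name here, and are left out of the figures. Values in every library were added for further members after they were seen. Among the marker lists not described in the report, the 11 measured fibroblast and pericyte markers summed to 143 to 1210 FPKM in controls and 604 to 1790 FPKM in knockouts (a sum carried by Acta2, with 8 of the 11 lower in mean in the knockouts and a median log2 difference of -0.63), the 5 endothelial markers to 6.08 to 8.68 and 2.34 to 4.13 FPKM, and the 7 podocyte and parietal markers to 169 to 239 and 110 to 177 FPKM.

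Alternatives were pseudocounts of 0.1 and 0.5, a filter of at least 1 FPKM in at least 4 libraries, median-ratio scaling, no variance trend, a replicate block, a sex covariate, the male libraries alone, leaving out knockout 3 and 4 together, removal of the lowess trend on length and GC content, limma-voom on recovered reads and each library left out in turn. One more, the male libraries with that trend removed, was added after seeing the data.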

Additional observations from a re-analysis of the deposited data

Results flagged for a closer look

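In 12 of 100 groups of 4 libraries (49 members and Aldh2, 2 groups each), or 12.0%, 1 library lay far from the other 3. Its gap exceeded the 95% critical value of Dixon's test. The rate of 1 in 20 behind that value holds for independent values of normal spread. Here FPKM were not transformed and every gene was read in the same 8 libraries, so 12.0% cannot be read as an excess. The share over all genes was not counted. Of these, 6 were in control 4, 3 in knockout 2, 2 in knockout 1 and 1 in control 1.

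In control 4, Slc22a4 read 13.4 FPKM against 2.4 to 2.45 in the other controls, Abcc2 9.21 against 0.19 to 0.619 and Slc47a1 3.82 against 0.0342 to 0.0666. Slc5a3 read 7.87 FPKM there against 1.78 to 2.57, Slc19a1 6.73 against 4.43 to 4.79 and Slc23a1 1.09 against 0.308 to 0.34.

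Knockout 2 was set apart by Abca1, at 25.8 FPKM against 3.48 to 6.93 in the other knockouts, by Abcc2, at 1.98 against 0.0187 to 0.21, and by Slc10a3, the low value, at 9.5 against 11.8 to 12.1. Knockout 1 was low for Slco2a1, at 18.8 FPKM against 25.4 to 26.2, and for Abca7, at 2.33 against 7.25 to 8.09. Control 1 was low for Abca3, at 13.3 FPKM against 16.4 to 16.7.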

How the results depend on the processing

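Of 716 comparisons of 36 genes chosen by the naming rule (35 of them members) with an alternative, 701 kept direction and side of the threshold or were called in neither fit, 14 passed the threshold under the alternative, 0 lost a call and 1 turned: Abcb8 stood at 0.34 in the male libraries alone. In 83 comparisons of 25 genes the sign differed with no call in either fit. Over all genes, 11 passed, against 3 with pseudocount 0.1, 1 with the replicate block, 4838 with a sex covariate, 6275 in the male libraries alone, 2 with the length and GC trend removed and 7 with limma-voom on recovered reads. Removing that trend in the male libraries alone, chosen after seeing the data, gave 3233. Leaving out 1 library gave 1 to 1139 genes, with 1139 without knockout 2, 8 without control 4, 3 without knockout 3 and 1 without any of the others.

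Uptake members past the threshold numbered 0, and 4 with a sex covariate, 6 in the male libraries alone, 4 in these with the trend removed and 0 to 1 leaving out 1 library. Export members numbered 0, and 2, 3 and 2 in the same 3 fits and 0 leaving out any library. The cause of these changes was not tested. Members without overlap numbered 2 in all 8 libraries, 3.92% against 11.6% of all genes. With median-ratio scaling the groups of Slc29a2 overlapped. The number of members without overlap was higher in several sets of fewer libraries, where separation is easier. Shares over all genes were not counted in those sets, so nothing particular to the members can be read from that rise.

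A pairing by replicate number was not seen: deviations of same-numbered libraries correlated at 0.04, -0.20, 0.56 and -0.06, and control 3 alone correlated best with its own number. The check cannot exclude pairing, since libraries 1 and 2 differ in sex between the groups. Members with few reads, such as Slc47a1, Abcc2 and Abcb1a, are limited by depth.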
